A study of Mus musculus with 3 samples.

Results

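Translation factors are the proteins that place a ribosome on a messenger RNA, find the start codon and carry tRNAs and the ribosome along the message. Their transcripts were followed here across natural killer B (NKB), natural killer (NK) and B cells of the mouse spleen. The genes were chosen by name alone: every transcript filed on the arrays under a gene symbol that starts with Eif or Eef was taken, which gave 149 of the 44170 transcripts and 67 of the 24171 genes with a symbol. Of these 67 genes, 29 are represented by 1 transcript and 38 by several, at most 6, and each of the 149 transcripts is read by 3 probes. The naming rule also takes in 5 genes filed as Eif2c1 to Eif2c5, of which Eif2c1 to Eif2c4 now carry the symbols Ago1 to Ago4 and encode Argonaute proteins of the small RNA pathway, not translation factors. They are kept as members because the rule holds them, and counts are also given without them.

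The NKB, NK and B populations all came from spleens of wild-type C57/BL6 mice aged 8 weeks and kept under specific pathogen-free conditions, with no treatment named. RNA was hybridised to 1-colour expression arrays, 1 array per population, so no difference below could be tested, and with so few arrays each value is imprecise to a degree that is not known. How the populations were gated, how many animals were used and whether they were pooled are not given in the sources used here. Because the sorting text speaks of long-term hematopoietic stem cells for every sample, the populations are called by the sample titles.

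Protein synthesis starts when eIF2 brings the initiator tRNA to the small ribosomal subunit, where the many-subunit factor eIF3 and the small factors eIF1 and eIF1A hold it open for scanning. The eIF4 factors bind the cap and unwind the leader of the message, while eEF1 and eEF2 drive elongation once the ribosome has assembled. Phosphorylation of eIF2 by stress kinases and sequestration of the cap-binding protein eIF4E by 4E-BPs are the main brakes on initiation, and lymphocytes release such brakes when they are activated and grow.

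Intensities are the deposited values on a linear scale, whose median was 65.1 for NKB, 64.8 for NK and 64.3 for B cells. A gene counts as detected on an array when the log2 mean of its transcripts lies above the value that 95% of 924 olfactory and vomeronasal receptor genes stay under, which is 135 for NKB, 137 for NK and 149 for B cells. The words higher and lower are used of a gene as a call when 2 arrays differ at least 2-fold after values under these levels are set to them, and "at least" marks a fold whose dimmer side was under its level. Among the 924 receptor genes themselves, 1.41% passed this rule for NKB against B, 2.27% for NKB against NK and 1.62% for NK against B. The level was set from these same genes, so these shares are low by construction and are no error rate for the calls. As deposited, without the level, 20.9%, 21.0% and 14.0% of the receptor genes differed at least 2-fold in the same comparisons. The standard deviation of their log2 differences as deposited was 0.87, 0.89 and 0.69 in the same comparisons. Where a gene has several transcripts, the standard deviation (SD) of the log2 difference over them is given for the called genes. It is a spread between transcripts read on the same arrays and holds no error between arrays or animals.

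Markers of 6 cell types were read as a check of the titles. Of 8 B cell markers, 8 were detected in NKB cells, 1 in NK cells and 8 in B cells, with summed intensities of 24092, 608 and 24382. Of 8 NK markers, 6 were detected in NKB cells, 8 in NK cells and 1 in B cells, and their summed intensity was 14133 in NKB, 53978 in NK and 546 in B cells. Ccl5 (8916) and Gzma (4098) held most of the NKB sum. Of these 8 markers, 2 were called higher in NKB than in B cells (25.0%, against 4.56% of all genes). Against NK cells 7 were called lower in NKB (87.5%, against 5.1% of all genes). All 7 macrophage markers were detected on the NKB and NK arrays and 1 on the B array, with sums of 6586 in NKB, 6896 in NK and 726 in B cells, and 5 erythroid markers summed to 9336, 5777 and 1187. T cell markers, 6 in number, were detected for 3 genes in NKB, 3 in NK and 2 in B cells and summed to 1076, 3216 and 633. No stem cell marker of 5 was detected on the NKB or B array and 1 was on the NK array. The macrophage and erythroid signals move with the comparisons against B cells and the T cell signal with those of the NK array, and their part in the differences below was not tested. In sorted bulk RNA, fewer cells of a type and less RNA per cell cannot be told apart.

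Translation factors were widely expressed in all 3 populations. Of the 67 genes, 43 (64.2%) were detected in NKB cells, 40 (59.7%) in NK cells and 41 (61.2%) in B cells, where 25.0%, 25.1% and 23.4% of all genes were. In all, 34 members were detected on every array and 51 on at least 1. The 16 that stayed under the level on all 3 read between 23.3 and 134 and included genes known from other tissues, such as Eef1a2, the muscle and neuron form of the tRNA carrier eEF1A, and Eif4e1b, the oocyte form of the cap-binding protein. For 12 of the 16, no transcript was above the level on any array. The means of the other 4, Eif2ak4, Eif2s2, Eif4e1b and Eif6, join dim transcripts with some above the level. In Eif6, which keeps ribosomal subunits apart, BC024442 had 163.9 in NKB, 136.5 in NK and 159.0 in B cells. In Eif2ak4, the amino acid sensor kinase GCN2, BC072637 had 176 in NKB, 71.7 in NK and 174 in B cells.

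NKB cells differed from B cells in both directions. Of the 67 genes, 4 were higher (5.97%, against 4.56% of all genes) and 9 were lower (13.4%, against 4.75% of all genes), and 54 were neither. Members are brighter than most genes, so the closer background is the 5556 genes whose mean level lies above the detection level, with 17.3% of them higher in NKB cells and 19.7% lower. The 42 members that bright had 9.52% higher and 21.4% lower, so the share of lower calls lay near that background and the share of higher calls under it. The median log2 difference over all 67 was -0.21, against 0.01 over all genes and -0.16 over the bright genes. Without the Argonaute genes, 3 of 62 were higher and 8 lower. Counted over the 149 transcripts, 16 were higher (against 6.34% of all transcripts) and 23 lower (against 5.83%).

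Against NK cells the balance was turned. Here 10 of 67 genes were higher in NKB cells (14.9%, against 5.97% of all genes) and 5 were lower (7.46%, against 5.1% of all genes). Of the 42 bright members, 23.8% were higher and 11.9% lower, against 22.7% and 19.8% of all bright genes, so the higher calls lay near that background and the lower calls under it. The median log2 difference was 0.17 over the members, 0.02 over all genes and 0.03 over the bright genes. Both comparisons share the NKB array, so a gene high on that array alone is counted in both. Without the Argonaute genes, 9 of 62 were higher and 5 lower, and over the 149 transcripts 21 were higher (against 7.75% of all transcripts) and 18 lower (against 6.25%).

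NK and B cells were closer to each other. Only Eef2k was higher in NK (1.49%, against 2.22% of all genes), and 4 genes were lower (5.97%, against 2.97% of all genes). Of the 42 bright members, 2.38% were higher and 9.52% lower, against 7.94% and 12.1% of all bright genes. Over the 149 transcripts, 6 were higher (against 2.83% of all transcripts) and 14 lower (against 3.62%). The sizes were small and mostly of 1 sign: 52 of the 67 genes (77.6%) read lower on the NK array than on the B array as deposited, against 51.8% of all genes, and 76.2% of the bright members did, against 60.6% of the bright genes. The members had a median log2 difference of -0.37 against -0.03 over all genes and -0.20 over the bright genes. The ribosomal protein genes, 85 in number, lay further the same way, with a median of -0.61, 0 higher and 15 lower (17.6%, against 2.97% of all genes and 12.1% of the bright genes). For the NKB array, the ribosomal protein median was -0.22 against B and 0.36 against NK, with 15 genes called higher and 12 lower against B cells (17.6% and 14.1%), and 22 higher and 4 lower against NK cells (25.9% and 4.71%). Among bright genes these shares were 17.3% and 19.7% against B and 22.7% and 19.8% against NK. Setting the arrays to equal medians over genes detected on all 3 brought the median of the bright genes to -0.01 in NK against B and that of the members to -0.17. A stricter detection level, at the 99th percentile of the receptor genes (235 for NKB, 401 for NK and 416 for B cells), kept 18 of the 33 calls made over the 3 comparisons.

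**Figure D1:**
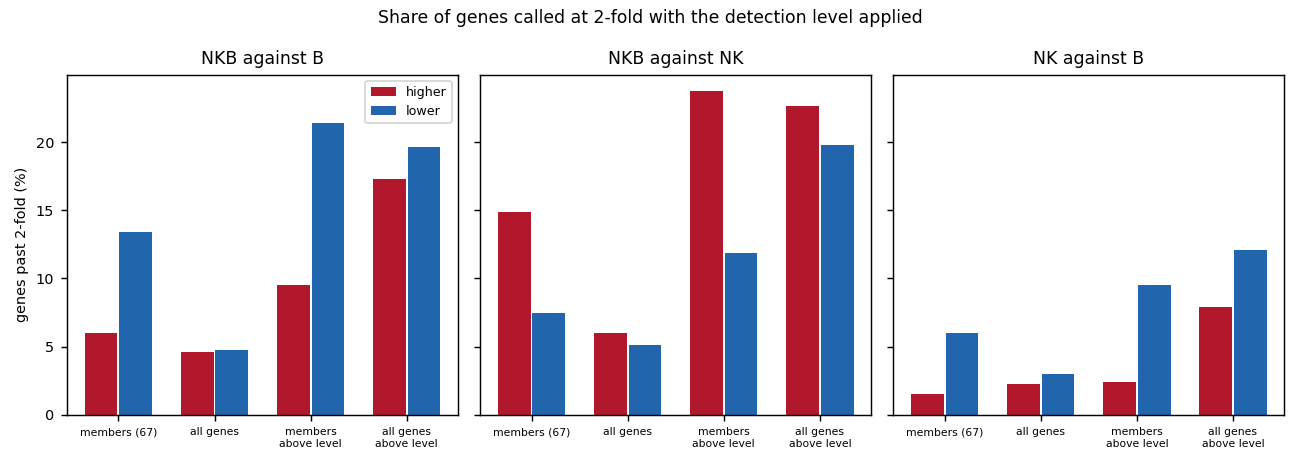
Share of genes (%) called at least 2-fold higher (red) or lower (blue) in NKB against B, NKB against NK and NK against B cells, for the 67 translation factor genes, all 24171 genes, the 42 members above the detection level on average and all 5556 genes above it. The members exceed all genes in most bars. Among genes above the level, the members' lower calls in NKB against B (21.4%) lie near the 19.7% of all such genes. Their higher calls in NKB against NK (23.8%) lie near 22.7%, and in the other bars the members lie under all such genes.

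The small factors that scan for the start codon gave 1 call in 5 genes. Eif1, which guards the choice of start codon, read 1707 in NKB, 1361 in NK and 1241 in B cells, all within 2-fold. Eif1ad, a gene named for an eIF1A-like domain, had 245 in NKB cells, 718 in NK cells and 693 in B cells. The NKB array thus stood alone as low, 2.83-fold lower than B and 2.94-fold lower than NK, from 1 transcript. The transcript filed as Eif1ay lies on the X chromosome and now carries the symbol Eif1ax, an eIF1A gene, and it read 31.3, 49.5 and 58.7 on the NKB, NK and B arrays, under the level on each. Eif1a, the other eIF1A gene, was also under the level on all 3.

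Among the subunits of eIF2, the carrier of the initiator tRNA, only the gamma subunit was called on its mean. Eif2s3x, its X-linked gene, averaged 1453 in NKB, 280.4 in NK and 501 in B cells, 2.90-fold higher in NKB than in B and 5.18-fold higher than in NK. Its 2 transcripts did not share this pattern. The transcript AK171317 had 5262 in NKB cells, 139.8 in NK cells and 549.6 in B cells, and BC063755 had 401, 563 and 456. The SD over both was 4.05 for NKB against NK and 2.44 for NKB against B, larger than the mean log2 difference of 1.54, so the call rests on AK171317 alone. Eif2s3y, the Y-linked copy, read 57.6 in NKB, 39.6 in NK and 89.2 in B cells, under the level on each array. Eif2s1, the alpha subunit whose phosphorylation stops initiation, had 163 in NKB, 113 in NK and 183 in B cells, with no call. Eif2s2, the beta subunit, averaged 134 in NKB, 78.1 in NK and 132 in B cells over 3 transcripts, under the level on each array. Its transcript BC003848 had 579 in NKB, 119 in NK and 298 in B cells. NKB exceeded NK at least 3.98-fold for this transcript, and the SD over transcripts was 1.38 in that comparison. Eif2a, a separate factor that can deliver the initiator tRNA without eIF2, averaged 222 in NKB, 105 in NK and 139.7 in B cells over 4 transcripts and was not called.

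The guanine nucleotide exchange factor eIF2B, which recharges eIF2 with GTP, was low in NKB cells for some subunits. Eif2b2, the beta subunit, had 179 in NKB, 333 in NK and 450.1 in B cells, which is 2.52-fold lower in NKB than in B, and -0.94 on the log2 scale, under the call, with the level at the 99th percentile. Eif2b4, the delta subunit, had 29.6 in NKB, 105 in NK and 219.7 in B cells, and both of its transcripts gave that order, with an SD of 0.13. Its log2 difference between NKB and B was -2.89 as deposited and -0.70 once the NKB value was set to the detection level, so it was not called. Eif2b3, the gamma subunit, ran the other way, with 143 in NKB, 33.2 in NK and 33.7 in B cells, and was not called because the NKB value lay just above its level. Eif2b1 read between 104 and 146 and Eif2b5 between 87.0 and 210.0, with no call.

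Of the 4 kinases that phosphorylate eIF2alpha, only Eif2ak3 (PERK, the sensor of the endoplasmic reticulum) was called. It averaged 346 in NKB, 152 in NK and 266 in B cells, 2.28-fold higher in NKB than in NK, and taken from its brightest transcript the log2 difference was 0.88, short of the call, and with the level at the 99th percentile it was -0.21. Its 3 transcripts disagreed between NKB and B, with 2 of them higher and 1 lower at 2-fold (SD 1.51, and 0.87 against NK). Eif2ak2 (PKR, the sensor of double-stranded RNA) was detected only on the NKB array, at 176, with 66.3 in NK and 78.2 in B cells. Eif2ak1 (HRI, the heme-regulated kinase) had 110.4, 105 and 169, and Eif2ak4 (GCN2) 66.0, 45.3 and 58.0, on the NKB, NK and B arrays. None of these values was a call, and those of Eif2ak2 in NK and B cells are bounds only.

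The 13 genes of eIF3, the scaffold that links the small subunit to the cap complex, held the widest difference, that of Eif3e. Called in NKB cells against B were 2 higher and 2 lower, against NK 5 higher and 1 lower, and for NK against B 0 higher and 3 lower. As shares of the 13 these are 15.4% and 15.4%, 38.5% and 7.69%, and 0.0% and 23.1%, where bright genes had 17.3% and 19.7%, 22.7% and 19.8%, and 7.94% and 12.1%. Their median log2 differences were -0.02, 0.25 and -0.26 in the same order. Eif3e, which lies at chr15:43081598-43114243 on build MM9 and encodes the subunit also known as Int6, had 1342 in NKB cells, 141 in NK cells and 167 in B cells. The NKB array stood far above both others, 8.03-fold over B and 9.53-fold over NK, from 1 transcript. Eif3a, the largest subunit, had 367 in NKB, 103 in NK and 105.5 in B cells, at least 2.47-fold higher than in B and at least 2.68-fold higher than in NK. Both of its transcripts were higher in NKB, by 1.84 (AK082006) and 1.76 (AK087340) on the log2 scale as deposited against B, but AK087340 was under the level on each array. The SD over both was 0.06 against B and 0.95 against NK. With the level at the 99th percentile of the receptor genes neither call of Eif3a held, and the differences were -0.18 and -0.13.

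A further 3 eIF3 subunits were called higher in NKB against NK cells but not against B cells. Eif3l had 489 in NKB, 153 in NK and 308 in B cells, 3.20-fold higher in NKB than in NK, with both transcripts past 2-fold (SD 0.34). Eif3m, another subunit of the eIF3 core, had 442, 206 and 296 on the NKB, NK and B arrays, 2.15-fold higher in NKB than in NK, and only BC116787 of its 2 transcripts passed 2-fold. The SD over them, 1.14, exceeded the mean log2 difference of 1.10. Eif3h had 3468 in NKB, 1696 in NK and 2700.0 in B cells, 2.04-fold higher in NKB than in NK. For these 3 genes the NK array is the low one and B cells lie between. The calls of Eif3h and Eif3m sit close to the threshold, and after a new quantile normalization their log2 differences were 0.43 and 0.98, under it. With the level at the 99th percentile the differences of Eif3l and Eif3m against NK were 0.28 and 0.14, and both calls were lost.

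Eif3i and Eif3f were low in NKB cells. Eif3i, a subunit that binds Eif3b and Eif3g, averaged 136 in NKB, 390.3 in NK and 468 in B cells, 3.44-fold lower than in B and 2.87-fold lower than in NK. Its 2 transcripts shared the sign with different sizes (SD 1.14 against B and 1.39 against NK), and the brighter one alone gave -0.98 against B and -0.54 against NK, under the call. With the level at the 99th percentile both calls of Eif3i were lost too (-0.99 and 0.0). Eif3f had 361 in NKB, 540.3 in NK and 1098 in B cells, 3.04-fold lower in NKB than in B. In this gene the B array is the high one, since NK was also 2.03-fold lower than B. Eif3g was also highest in B cells, with 292 in NKB, 183 in NK and 499.5 in B cells. It was 2.73-fold lower in NK than in B and was not called in NKB against B. The NK and B values of Eif3l were also called, at 2.02-fold lower in NK (SD 0.85), and from its brighter transcript the difference was -0.41. Neither the Eif3g nor this Eif3l call held with the level at the 99th percentile (-0.32 and 0.0). Under the new quantile normalization the NK against B differences of Eif3f and Eif3l were -0.93 and -0.98, and with equal medians -0.83 and -0.82. Eif3d, a subunit that can itself bind the cap of some messages, averaged 82.8 in NKB, 226 in NK and 181 in B cells and was not called. Of its 2 transcripts, BC089020 had 218 in NKB, 511 in NK and 795.5 in B cells, 3.65-fold lower in NKB than in B and 2.35-fold lower than in NK, and AK137428 was under the level on all 3 arrays. The other eIF3 genes (Eif3b, Eif3c, Eif3j and Eif3k) ranged from 71.6 to 498 with no call.

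**Figure D2:**
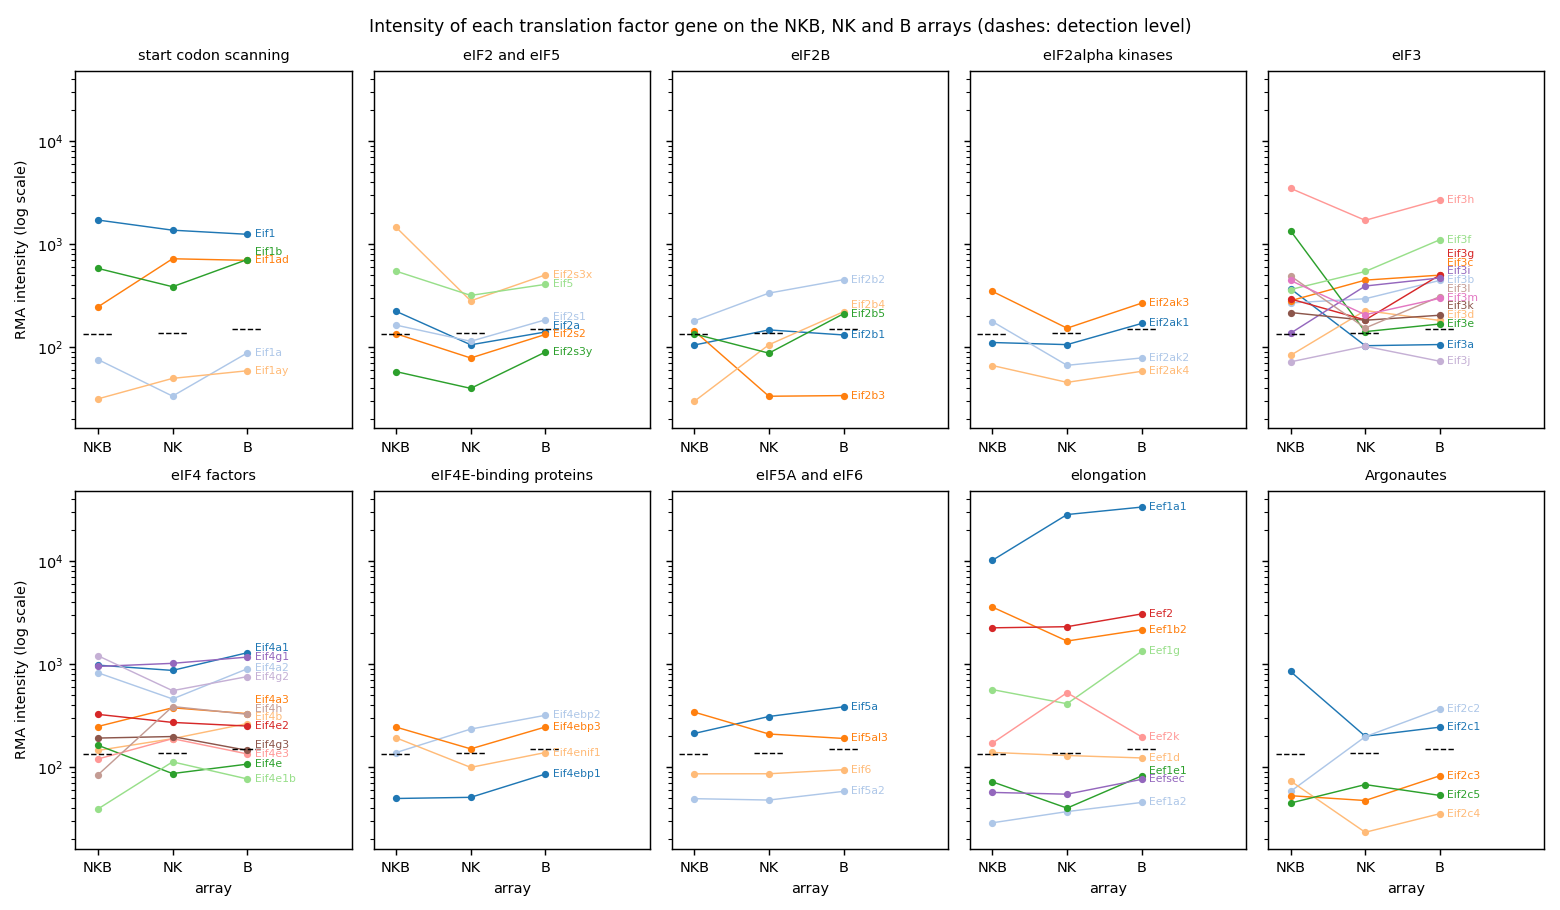
Intensity (log scale) of each of the 67 genes on the NKB, NK and B arrays, 1 panel per role, with the detection level of each array as a dashed mark. Eif3e and Eif2s3x peak on the NKB array, Eef1a1 is lowest there at 10191, and Eef2k peaks on the NK array at 528.

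On their gene means, the factors that bind and unwind the capped end of the message mostly stayed within 2-fold. Some of their transcripts did not. Eif4e, the cap-binding protein, averaged 163 in NKB, 86.6 in NK and 107 in B cells over 3 transcripts, above the level on the NKB array only. Its transcript BC010759 was above the level on all 3 arrays, with 589.8 in NKB, 204 in NK and 323 in B cells. That is 2.90-fold higher in NKB than in NK. The transcript XM_001004193 read 29.5, 46.0 and 40.7, so the mean does not show where Eif4e is expressed. Eif4a1, the main RNA helicase of the complex, had 978 in NKB, 869 in NK and 1289.8 in B cells. Eif4g1, the scaffold that joins them, had 949 in NKB, 1018 in NK and 1170.4 in B cells. None of these core subunits was called on its mean, though transcripts of Eif4g1 passed 2-fold in opposite directions, as given below. Eif4g2 (DAP5), a scaffold relative that lacks the eIF4E-binding site, averaged 1208 in NKB, 553 in NK and 757 in B cells, 2.19-fold higher in NKB than in NK, and 0.81 on the log2 scale after a new quantile normalization, under the call (SD 0.71). Eif4h, a helper of the helicase, had 84.0 in NKB cells, 388 in NK cells and 326 in B cells. The NKB value lay under its level, so Eif4h was at least 2.41-fold lower than in B and at least 2.86-fold lower than in NK. With the level at the 99th percentile all 3 values of Eif4h lay under it, and neither call held.

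The inhibitors of eIF4E gave 1 call in 4 genes. Eif4ebp2, a 4E-BP, averaged 138.5 in NKB, 234 in NK and 319 in B cells, 2.30-fold lower in NKB than in B, with both transcripts lower and an SD of 0.43. Both values lay under the 99th percentile level, at which the call was lost. Eif4ebp3 had 245 in NKB, 150.4 in NK and 245 in B cells. Eif4ebp1, the 4E-BP most studied as a target of mTOR, read 49.6, 50.9 and 85.7 on the NKB, NK and B arrays, under the level on each. Of the 4E-BP genes, only Eif4ebp2 and Eif4ebp3 were thus above the level. Eif4enif1, the transporter that carries eIF4E into the nucleus, averaged 193 in NKB, 99.4 in NK and 139 in B cells and was not called.

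Eif5a, which helps ribosomes through stretches such as proline runs and carries the amino acid hypusine, averaged 212 in NKB, 310.1 in NK and 385 in B cells and was not called. Its 6 transcripts spread widely (SD 1.29 for NKB against B), and 5 of them had the same sign, lower in NKB. Eif5a2, its paralog, read 49.4 in NKB, 47.9 in NK and 58.2 in B cells and Eif6 averaged 86.1, 86.2 and 94.4, all under the level. The transcript filed as Eif5al3, now listed as a pseudogene, read 342 in NKB, 209.7 in NK and 189.8 in B cells. Because such a copy can resemble Eif5a, its signal cannot be assigned to the locus with certainty.

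Elongation factors held the change that the most transcripts of a gene shared. Eef1a1, which delivers aminoacyl-tRNA to the ribosome, averaged 10191 in NKB cells, 28341 in NK cells and 33494 in B cells. The NKB array was the low one, 3.29-fold under B and 2.78-fold under NK. All 5 transcripts were at least 2-fold lower in NKB than in B (SD 0.49) and 4 of the 5 were against NK (SD 0.57). The smallest difference against both was that of BC004067, with 12939 in NKB, 25231 in NK and 30513 in B cells, and the largest that of BC004005, with 5328, 26968 and 30665. Of the 5, 4 are placed on chromosome 9 of MM9, where they overlap, and AK210662 on chromosome 2. All were read on the same arrays, so their agreement is not that of independent replicates. Eef1a1 has many near-identical pseudogene copies, so its signal cannot be assigned to 1 copy. Eef1a2 read 28.8 in NKB, 37.0 in NK and 45.4 in B cells, under the level.

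None of the other eEF1 subunits was called lower in NKB than in both B and NK cells, as Eef1a1 was. Eef1g was called lower in NKB against B only. Eef1b2, the subunit that exchanges GDP for GTP on eEF1A, had 3583 in NKB, 1676 in NK and 2159 in B cells, 2.14-fold higher in NKB than in NK and 1.66-fold above B without a call. Its difference against NK was 0.50 on the log2 scale after a new quantile normalization and 0.99 with equal medians, both under the call. Eef1g, a structural subunit of the same complex, had 566 in NKB, 412.5 in NK and 1332 in B cells, 2.35-fold lower in NKB than in B and 3.23-fold lower in NK than in B. Eef1d, the other exchange subunit, averaged 139 in NKB, 129.6 in NK and 123 in B cells over 5 transcripts and was not called. Its transcript BC013059 had 1128 in NKB, 438.5 in NK and 694 in B cells, 2.57-fold higher in NKB than in NK. As deposited, 2 of the 5 transcripts read higher in NKB than in NK, with an SD of 1.21. Thus B cells were highest for Eef1g, NKB cells were highest for Eef1b2, and the mean of Eef1d stayed within 2-fold.

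Eef2, which moves the ribosome by 1 codon, had 2252 in NKB, 2309.6 in NK and 3073 in B cells, with no call. Its inhibitory kinase Eef2k averaged 171 in NKB cells, 528 in NK cells and 197 in B cells. The NK array was the high one, 2.69-fold over B, and NKB was 3.09-fold lower than NK. Of its 4 transcripts 3 were past 2-fold in NK against B, and the brightest, AK179186, was not, with log2 differences of 0.11 for NK against B and -0.69 for NKB against NK. The SD over the 4 was 0.98 for NK against B and 1.26 for NKB against NK, and with the level at the 99th percentile NK against B gave 0.34, under the call. Eefsec, the selenocysteine elongation factor, and Eef1e1, a component of the tRNA synthetase complex, were under the level on all 3 arrays.

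The Argonaute genes split. Eif2c1 (now Ago1) had 848 in NKB, 199.6 in NK and 244 in B cells, 3.47-fold higher in NKB than in B and 4.25-fold higher than in NK. Eif2c2 (now Ago2, the Argonaute that cuts its target) had 58.1 in NKB, 197.5 in NK and 367 in B cells, at least 2.71-fold lower in NKB than in B, a call lost with the level at the 99th percentile. Thus the NKB array was the high one for Ago1 and the low one for Ago2, each from 1 transcript. The remaining 3 Argonaute entries were under the level on every array.

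**Figure D3:**
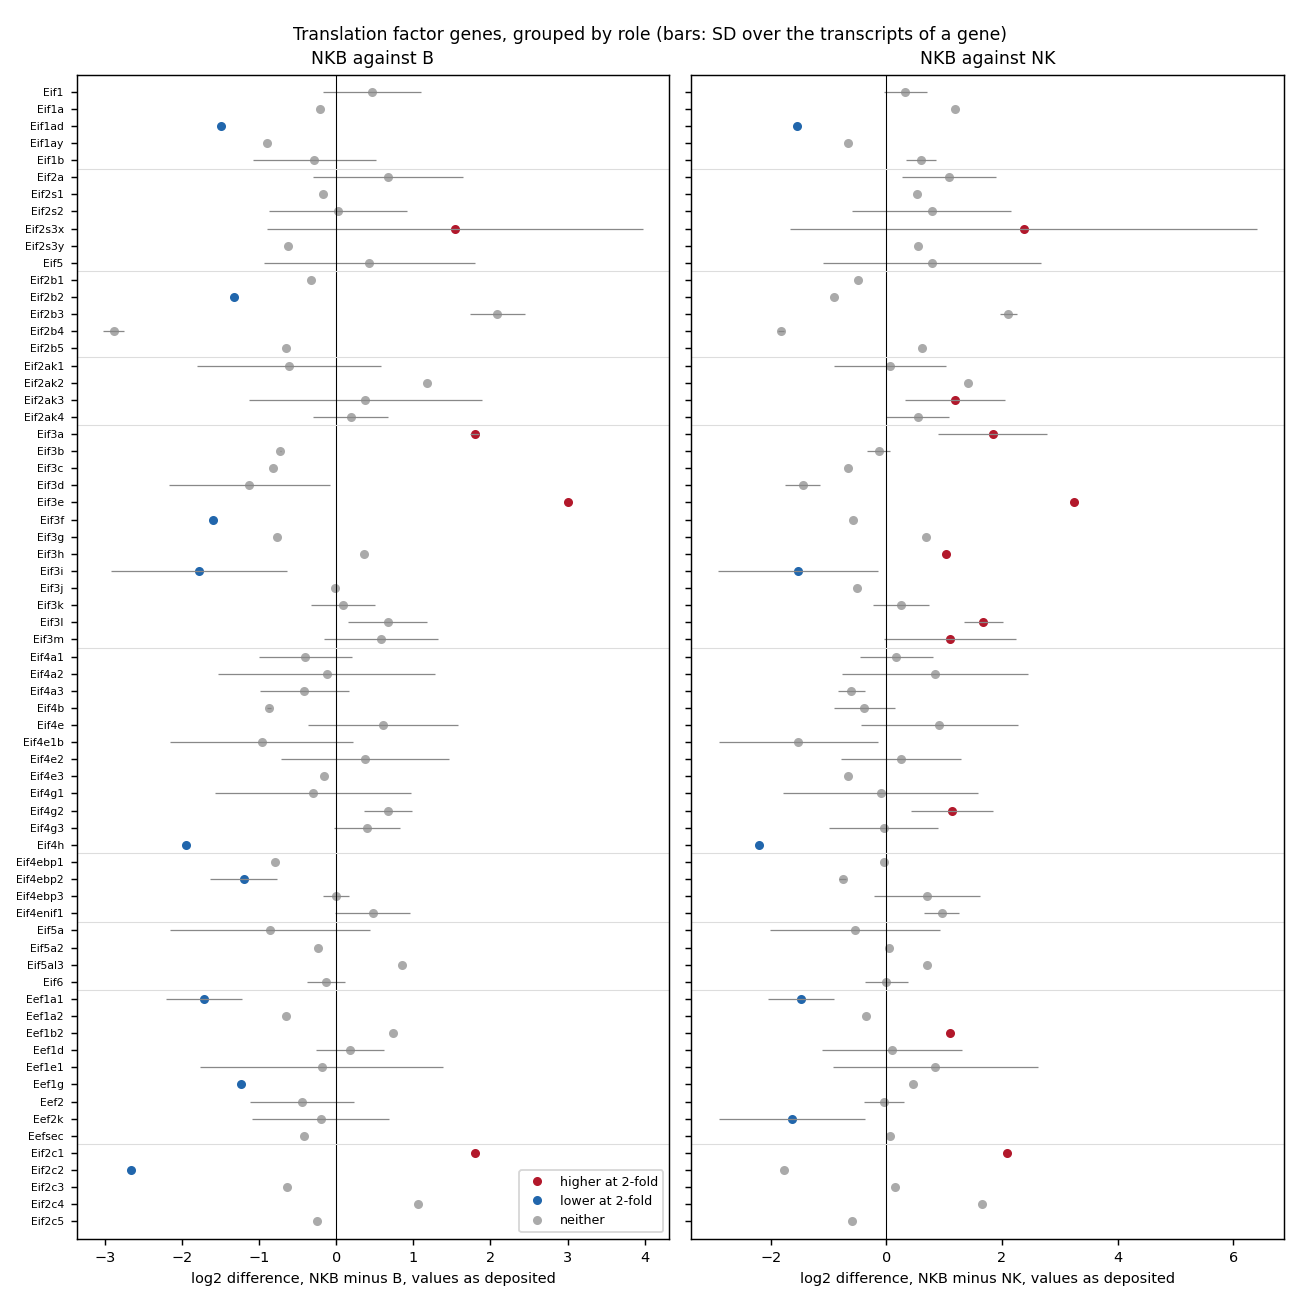
Log2 difference as deposited of each of the 67 genes, in NKB minus B (left) and NKB minus NK (right), grouped by role, with bars for the SD over the transcripts of a gene (no bar where there is 1 transcript). Red and blue points passed the 2-fold call with the detection level applied, and the bar of Eif2s3x, with an SD of 2.44 against B, crosses 0.

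In some genes, transcripts went opposite ways. Of the 38 members with several transcripts, 5 had transcripts at least 2-fold higher and at least 2-fold lower in NKB than in B (13.2%, against 1.59% of the 10215 genes with several transcripts), namely Eif2ak1, Eif2ak3, Eif4a2, Eif4g1 and Eif5. These 5 genes have 3 to 6 transcripts each, and the background was not matched on the number of transcripts or on level. Against NK cells there were 2 such genes (5.26%, against 1.77%), Eif4g1 and Eif5, and between NK and B there were 0 of 38 (0.206% of all genes). The median SD over transcripts of a member was 0.66 for NKB against B, 0.84 for NKB against NK and 0.47 for NK against B, against 0.76, 0.80 and 0.54 over all genes.

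In Eif4a2, the second eIF4A helicase, AK132969 had 5828 in NKB, 653 in NK and 1510.5 in B cells, while BC094422 had 274, 392 and 617. Eif5, which makes eIF2 hydrolyse its GTP at the start codon, had 3592 in NKB, 247 in NK and 635 in B cells for AK167331 and 305, 1247 and 928 for BC042622. In Eif4g1, AK133903 had 1801 in NKB, 349.8 in NK and 495 in B cells, and BC066038 had 2075, 10904 and 5078. In each of these genes 1 transcript stands out as high on the NKB array and another runs the opposite way, and the gene means hide both: Eif4a2 averaged 825 in NKB, 459 in NK and 900.2 in B cells, and Eif5 544 in NKB, 317 in NK and 405.0 in B cells. Which probes match which splice form could not be read from the files, so whether isoforms differ was not tested. Eif4e1b shows the reverse case, a gene mean under the level with transcripts above it: DQ279478 had 53.0 in NKB, 360.6 in NK and 139.3 in B cells and DQ279479 had 43.6, 384 and 316.

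**Figure D4:**
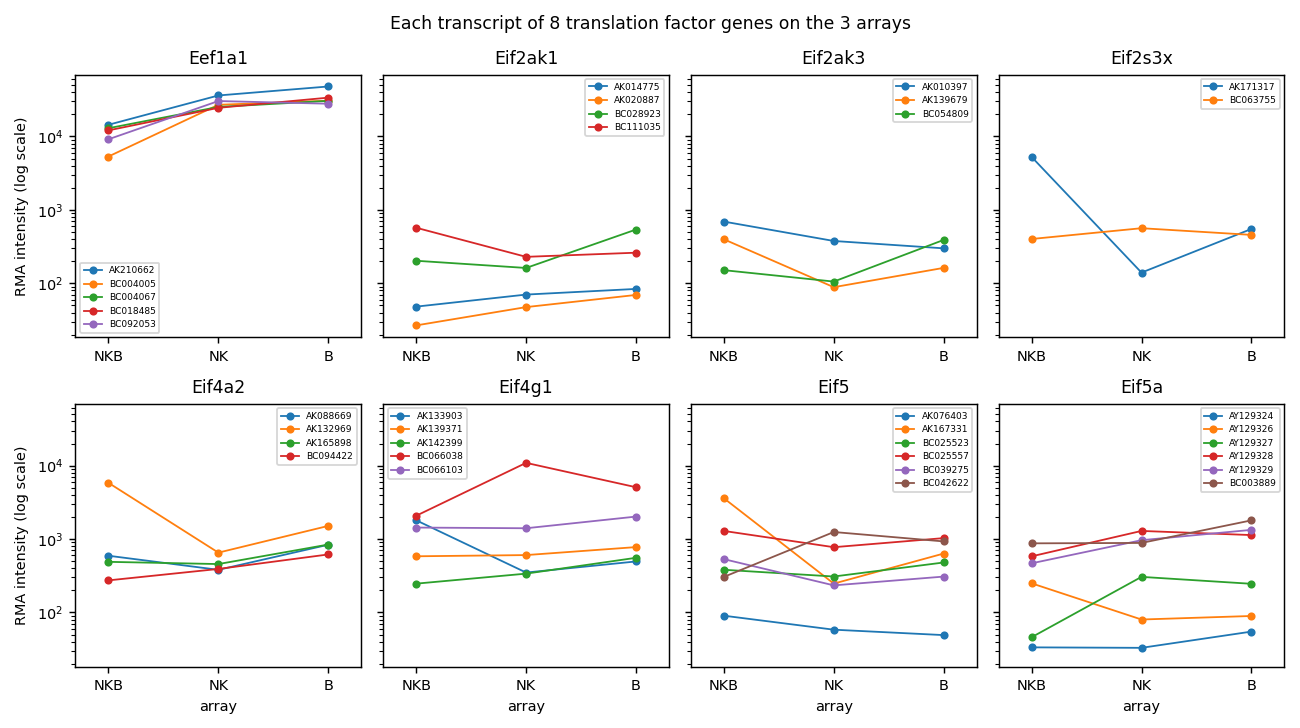
Intensity (log scale) of every transcript of 8 translation factor genes on the NKB, NK and B arrays. All 5 transcripts of Eef1a1 are lowest on the NKB array, while in Eif4a2, Eif4g1, Eif5 and Eif2s3x 1 transcript stands far higher on the NKB array than on the other arrays and at least 1 other does not.

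The authors' deposited tables list transcripts at least 2-fold different, but not all of them. In NKB against B they hold 16 of the 25 member transcripts at least 2-fold higher as deposited and 28 of the 31 lower, and in NKB against NK 24 of 35 and 21 of 24. In both comparisons the member transcripts missing from the authors' deposited tables read at most 121 on the B array, and those listed at least 139. The listed higher transcripts of NKB against B in the authors' deposited table belong to 14 member genes (10.7% of the 149, against 6.96% of all transcripts) and the lower ones to 19 (18.8%, against 9.38%). For NKB against NK the authors' deposited table covers 21 member genes as higher (16.1% of the 149 transcripts, against 8.56%) and 14 as lower (14.1%, against 9.27%). The members' shares exceeded those of all transcripts in each direction, a background that was not matched for level. Members are brighter than most genes, and beside bright genes their shares of calls, given above, lay near or under the background. The log2 ratios in the authors' deposited tables differed from those recomputed from the arrays by at most 1.7e-06.

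The order of the arrays adds to these counts. Of the 42 members above the level on average, the NKB array was highest for 16, the NK array for 7 and the B array for 19. These shares are 38.1%, 16.7% and 45.2%, against 38.1%, 26.7% and 35.2% of all 5556 bright genes. The NKB array was lowest for 18, the NK array for 20 and the B array for 4, or 42.9%, 47.6% and 9.52%, against 41.7%, 38.2% and 20.1% of all bright genes. The B array was thus rarely the low one for a translation factor.

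Partners of these factors, taken from 7 lists chosen with earlier results of these data known, were read in the same way. The members named are mainly the 2 highest and 2 lowest in NKB against B with the level applied. For these counts, all genes gave 4.56% higher and 4.75% lower in NKB against B and 5.97% and 5.1% in NKB against NK, and bright genes 17.3% and 19.7%, and 22.7% and 19.8%. Of 16 partners of initiation, NKB cells had 3 higher and 1 lower against B cells (18.8% and 6.25%), and 2 higher and 1 lower against NK cells (12.5% and 6.25%). Their median log2 differences were 0.33 and 0.38, against 0.01 and 0.02 over all genes. Denr, which helps ribosomes restart after a short reading frame, had 1273 in NKB, 126 in NK and 196 in B cells. Paip2, a repressor that binds the poly(A)-binding protein, had 1651, 298 and 504 on the NKB, NK and B arrays. The helicase gene Ddx3x had 75.0 in NKB, 334 in NK and 437 in B cells, and Larp1, which binds messages for ribosomal proteins, had 591, 542 and 871. Denr and Paip2 were thus high on the NKB array alone, and Ddx3x low there alone, under its level.

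Of 9 termination and rescue genes, 3 were called higher and 1 lower against B cells (33.3% and 11.1%), and 3 higher and 0 lower against NK cells (33.3% and 0.0%), with medians of 0.45 and 0.38. The release factor genes Gspt1 (eRF3) and Etf1 (eRF1) had 594 and 440.6 in NKB cells, 123 and 148 in NK cells and 169 and 128 in B cells. Both were highest on the NKB array, by 3.51-fold and at least 2.96-fold over B. Gtpbp2, a GTPase of stalled ribosome rescue, had 93.7 in NKB, 176 in NK and 326 in B cells, and Pelo, the rescue factor that resembles eRF1, had 95.3, 151 and 188. Both read under the level on the NKB array, and only Gtpbp2 was called.

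Of 16 genes of the mTOR and MNK route to translation, none was called higher and 2 were lower (12.5%) in NKB cells against B, likewise against NK, with medians of -0.40 and -0.47. These lower shares lie above that of all genes and under that of bright genes. The kinase gene Akt1 had 204 in NKB, 839 in NK and 530.5 in B cells. It was 2.60-fold lower in NKB than in B and 4.11-fold lower than in NK. Akt1s1 (PRAS40, an inhibitor in the mTOR complex) had 102 in NKB, 199.1 in NK and 341 in B cells. It was at least 2.52-fold lower in NKB than in B and was not called against NK. The other gene called lower against NK was Rheb, with 76.5 in NKB, 271 in NK and 253 in B cells. Rps6kb1, the S6 kinase gene, had 234, 113 and 161 and Tsc1, a brake on mTOR, had 166, 81.8 and 99.9 on the NKB, NK and B arrays, with no call. Mtor itself read between 74.6 and 79.0, under the level on each array.

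Among 21 genes for cytosolic tRNA synthetases and their scaffold proteins, 2 were called higher and 5 lower against B cells (9.52% and 23.8%), and 2 higher and 3 lower against NK cells (9.52% and 14.3%), with medians of -0.49 and -0.25. Nars (asparagine) had 4510.2 in NKB, 559 in NK and 939 in B cells and Tars (threonine) had 814, 212 and 353.5. Vars (valine) had 346 in NKB, 771 in NK and 1437 in B cells and Wars (tryptophan) had 91.2, 257 and 374. The synthetases for different amino acids thus differed in opposite directions.

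Of 12 genes of the integrated stress response, the programme that eIF2alpha phosphorylation sets off, 1 was called higher and 1 lower (8.33% each) in NKB cells against B and none against NK. The list joins targets of the programme with regulators such as Gcn1 and Impact, so its counts do not describe targets alone. Ppp1r15a (GADD34), which brings a phosphatase to eIF2alpha, had 1206 in NKB, 713 in NK and 419.6 in B cells, 2.87-fold higher in NKB than in B. Atf4, the main transcription factor of the programme, had 690.2 in NKB, 1143 in NK and 1421 in B cells, 2.06-fold lower in NKB than in B. Ppp1r15b, the constitutive partner, had 285 in NKB, 159 in NK and 151 in B cells, and the asparagine synthetase gene Asns had 142, 108 and 78.1, neither called. Over the list, 7 of 12 read higher in NKB than in B cells as deposited, with a median of 0.87, and 3 of these were under the level on both arrays. Of the 2 hypusine enzymes, Dhps had 29.3 in NKB, 197 in NK and 216 in B cells and Dohh 195, 163 and 189.6, with no call. Of 8 mitochondrial translation factors, only Gfm1, an elongation factor, was called (12.5%), at 306 in NKB, 102 in NK and 249 in B cells, higher than in NK, and Mtif2 had 211, 85.6 and 123.

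Promoter sequences were searched for a feature the naming rule did not use. RefSeq promoter windows (GRCm38.p6, 250 bases before to 50 after an annotated start) were at hand for 52 of the 67 members. The 8-base motif CCGGAAGT, a core that ETS-family transcription factors are known to bind, or its reverse complement ACTTCCGG on the given strand, lay in the window of 9 of these 52 members (17.3%). It lay in 4.31% of the 27025 genes with a window and in 9.21% of the 3649 genes with a window whose mean level was above detection. The TATA motif TATAAA or its reverse complement TTTATA, neither of which contains or is contained in the other motif, lay in 9.62% of members, 15.7% of all genes and 10.7% of the genes above detection. Members with the motif CCGGAAGT had a median log2 difference of -0.61 in NKB against B (0 higher and 1 lower of 9), and those without it -0.24 (3 higher and 5 lower of 43). Against NK the medians were 0.04 and 0.25, with 2 higher and 0 lower of 9 and 5 higher and 4 lower of 43. A match describes these letters only. The 30 bases around the motif are shown for 6 of the 9 members, 5′ to 3′ on the strand of the gene, with the motif in capitals. They were taken from genes of different roles.
Eef1b2, chr1:63176821-63176850, plus strand: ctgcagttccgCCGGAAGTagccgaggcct
Eif2b2, chr12:85219486-85219515, plus strand: cctctctcggcCCGGAAGTgaaacagtgct
Eif2b4, chr5:31193120-31193149, minus strand: cccagtgcacgCCGGAAGTtgtagtccgct
Eif3d, chr15:77970877-77970906, minus strand: agctgtgacacACTTCCGGttgtgtctcac
Eif3l, chr15:79075176-79075205, plus strand: ggctgggcgggACTTCCGGtccggccaagc
Eif5a, chr11:69920667-69920696, minus strand: cagccgtagcaCCGGAAGTgttccccattg
In Eef1b2 and Eif2b4 the motif begins 1 base after the annotated start and in Eif2b2 16 bases after it, while in Eif3l it begins 36, in Eif5a 55 and in Eif3d 71 bases before the start. Of the members not shown, Eif5a2 has it 164 and 36 bases before the start and Eif2ak1 15 bases after. Eif4e2 has it within 23 bases of each of its annotated starts. Beside the windows shown, Eif2b2, Eif2b4, Eif3d and Eif5a read lowest on the NKB array and Eef1b2 and Eif3l highest there. Genes with the motif thus did not all share a direction.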

How the data were processed

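Total RNA of 3 sorted spleen populations was measured on NimbleGen 1-colour arrays, 1 array per population. Per the submitters' processing notes the deposited intensity of each transcript comes from RMA (version not given) and is on a linear scale; per the file headers, transcript coordinates are on build MM9. The authors' deposited tables of 2-fold changes hold log2 ratios. No further normalization was applied.

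Log2 intensities were averaged over the transcripts of a symbol. Member symbols were kept as filed and updated by gene identifier (RefSeq, GRCm38.p6), and 2284 transcripts without a symbol were left out. The detection level and the 2-fold rule are given with the results; medians use values as deposited. With 1 array per group, no test was possible. Genes are named when called, when brightest of their role, or from a written list of factors with known function. Members, lists and rules were chosen with earlier results of these data known. Alternatives varied the detection level, normalization and transcript summary. Python 3.11.15, pandas 2.3.3, numpy 2.4.6 and matplotlib 3.10.9 were used; the steps were tested on simulated data. Proteins and probe sequences were not used here.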

Additional observations from a re-analysis of the deposited data

How the results depend on the processing

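No paired analysis was possible because each population has 1 array, and for the same reason no replicate could be left out. Of the 33 named calls (13 in NKB against B, 15 in NKB against NK and 5 in NK against B), all 33 kept direction and call with 1 common detection level or none, 29 with arrays set to equal medians, 27 with a new quantile normalization, 27 from the brightest transcript and 18 with the level at the 99th percentile of the receptor genes. That level was 235 for NKB, 401 for NK and 416 for B cells. Values set to these unequal levels turned the sign of Eif3a against B (-0.18) and against NK (-0.13) and of Eif2ak3 against NK (-0.21). The counts moved as follows. In NKB against B, higher members numbered 10 from the brightest transcript, 2 when every transcript had to pass, 7 with no level and 16 over 149 transcripts, and lower members numbered 4 at the 99th percentile and 23 over transcripts. In NKB against NK, higher members numbered 6 at the 99th percentile, 5 when every transcript had to pass, 6 after quantile normalization and 21 over transcripts, and lower members numbered 3 at the 99th percentile, 2 when every transcript had to pass, 9 with no level and 18 over transcripts. In NK against B, higher members numbered 2 from the brightest transcript, 0 at the 99th percentile, 0 when every transcript had to pass and 6 over transcripts, and lower members numbered 2 with equal medians, 7 from the brightest transcript, 2 at the 99th percentile, 2 after quantile normalization, 9 with no level and 14 over transcripts. The median over members moved to -0.17 in NK against B with equal medians and, in NKB against NK, to 0.068 with equal medians and 0.049 after quantile normalization. These scalings moved the median of all bright genes by up to 0.19. Signal limits the 16 members whose mean lay under the level on all arrays. For 12 of them no transcript was above it, so no difference could be read.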

Other observations

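The naming rule misses 19 transcripts of 11 genes that were filed under older names and now carry a symbol starting with Eif or Eef. Of these, 4 transcripts of pseudogenes read lowest on the NKB array. The transcript now named Eef2-ps2 had 676 in NKB, 6013 in NK and 6250 in B cells, while Eef2 itself had 2252, 2309.6 and 3073. Eif1-ps1 had 326 in NKB, 1938 in NK and 1171 in B cells, Eif1-ps2 had 639, 1475 and 1147, and Eif1-ps3 had 475, 1230.3 and 1370.2, while Eif1 had 1707, 1361 and 1241. These copies resemble their parent genes, so which locus gave the signal cannot be told apart.

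Eef1akmt2, filed as Mettl10 and known as a methyltransferase of eEF1A, had 614 in NKB, 43.9 in NK and 49.8 in B cells for BC051506 and 598.5, 37.1 and 49.4 for BC116375, and BC096622 read 66.8, 41.2 and 76.6, under the level. Eif2d, filed as Lgtn and able to place the initiator tRNA without eIF2, had 159 in NKB, 25.8 in NK and 539.9 in B cells for AK078472 and 272, 112 and 139.1 for AK047005.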
